A study of Mus musculus with 2 samples.

Results

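H3K27 acetylation in the mouse embryonic heart at stage E10.5 was examined at 5 imprinted loci that govern fetal growth. The 8 genes are Igf2 and H19, Igf2r, Grb10, Kcnq1 and Cdkn1c, and Dlk1 and Meg3. This histone mark (H3K27ac) sits at promoters and enhancers in use, and it was mapped by ChIP-seq in cells sorted by fluorescence. The atrioventricular canal (AVC) sample came from EGFP-positive cells and the chamber sample from Katushka-positive cells, both on the FVB/N background and both labelled Katushka+ EGFP+. Each tissue had 1 library, so no difference below has a replicate check. Which promoters drive the reporters, and whether embryos were pooled, the sources used here do not say.

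A peak belonged to a locus when its midpoint lay in a fixed mm9 window: chromosome 7 from 149720001 to 149950000 for Igf2 and H19, chromosome 17 from 12820001 to 13050000 for Igf2r, chromosome 11 from 11800001 to 11980000 for Grb10, chromosome 7 from 150250001 to 150720000 for Kcnq1 and Cdkn1c, and chromosome 12 from 110620001 to 110850000 for Dlk1 and Meg3. The 5 windows held 156 of the 87572 AVC peaks and 153 of the 67092 chamber peaks. Peaks were selected on position alone, but the loci were chosen with the peak counts of these lists already known, so counts and positions are descriptions and carry no test. No gene annotation of the mm9 build was used, so a peak is placed in a window and not assigned to a promoter, exon or intron, and the tissue labels were not checked against marker genes.

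Imprinted genes are expressed from one parental copy, set by DNA methylation laid down in the germ line. Igf2, a paternally expressed growth factor, is countered by Igf2r, a maternally expressed receptor in the mouse that clears it for degradation. Grb10 dampens insulin and IGF receptor signalling, Cdkn1c blocks cyclin-dependent kinases, and both are maternally expressed in most tissues. H19 and Meg3 are maternally expressed non-coding RNAs, Dlk1 is a paternally expressed relative of the Notch ligands, and Kcnq1 encodes a potassium channel subunit of the cardiac action potential. The peak lists do not separate the parental alleles.

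Promoter sequences are shown for 4 transcripts to display their CG dinucleotides, and 1 of them, Airn, is not among the 8 genes. No methylation was measured, and whether any of these promoters carries the imprint was not tested. They come from RefSeq, build GRCm38.p6, 5′ to 3′ on the gene's strand, with 250 bases before and 50 after the start, and capitals mark each CG. Their positions are in another build than the peaks and were not compared with them. The Igf2r promoter lies at chr17:12769657-12769956 (minus strand), the promoter of Airn, the antisense RNA that overlaps Igf2r, at chr17:12741061-12741360 (plus strand), that of Grb10 at chr11:12037371-12037670 (minus strand) and that of Meg3 at chr12:109540746-109541045 (plus strand).
Igf2r: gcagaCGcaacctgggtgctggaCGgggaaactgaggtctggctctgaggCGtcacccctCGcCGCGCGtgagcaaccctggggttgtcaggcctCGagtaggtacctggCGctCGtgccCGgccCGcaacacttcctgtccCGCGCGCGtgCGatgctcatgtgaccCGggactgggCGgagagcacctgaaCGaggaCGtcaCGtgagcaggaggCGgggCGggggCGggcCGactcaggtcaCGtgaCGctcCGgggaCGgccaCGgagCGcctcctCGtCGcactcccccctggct
Airn: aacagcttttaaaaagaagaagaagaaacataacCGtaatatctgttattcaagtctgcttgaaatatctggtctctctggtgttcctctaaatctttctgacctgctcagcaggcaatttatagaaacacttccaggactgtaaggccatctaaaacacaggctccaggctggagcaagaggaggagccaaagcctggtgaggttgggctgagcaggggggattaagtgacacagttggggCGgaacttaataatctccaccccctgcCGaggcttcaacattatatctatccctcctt
Grb10: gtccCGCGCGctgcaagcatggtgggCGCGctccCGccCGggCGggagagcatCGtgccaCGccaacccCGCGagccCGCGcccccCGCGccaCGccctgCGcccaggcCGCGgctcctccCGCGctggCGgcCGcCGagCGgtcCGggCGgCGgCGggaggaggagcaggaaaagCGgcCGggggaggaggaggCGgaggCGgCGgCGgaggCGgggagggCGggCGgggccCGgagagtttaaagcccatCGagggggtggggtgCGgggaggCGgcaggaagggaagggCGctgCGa
Meg3: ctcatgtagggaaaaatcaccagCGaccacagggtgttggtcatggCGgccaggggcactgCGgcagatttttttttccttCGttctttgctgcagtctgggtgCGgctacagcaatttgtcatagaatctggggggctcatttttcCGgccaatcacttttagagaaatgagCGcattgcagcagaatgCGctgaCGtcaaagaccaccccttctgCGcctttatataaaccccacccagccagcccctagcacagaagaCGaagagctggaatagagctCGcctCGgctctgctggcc
Of the 8 genes, 5 had an entry, with 10 promoters in all. The Grb10 sequence held 45 CG dinucleotides and the Igf2r sequence 34, against a median of 7 over 32851 mouse promoters of this length. At least 1 CG was found in 94.6% of those promoters. The Meg3 promoter held 13 and the Airn promoter 3. The 4 Igf2 promoters held 2, 14, 24 and 7, the Dlk1 promoter 9, and the second promoters of Meg3 and Grb10 held 1 and 9.

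Called peaks were dense at the Igf2r, Igf2-H19 and Grb10 windows and least dense at Dlk1-Meg3. The Igf2r window held 44 AVC and 56 chamber peaks, the Igf2-H19 window 42 and 33, and the Grb10 window 26 and 29. The Kcnq1-Cdkn1c window, at 470 kb the longest, held 32 AVC and 27 chamber peaks, and the Dlk1-Meg3 window 12 and 8. Per 100 kb this was 19.1 AVC and 24.3 chamber peaks at Igf2r but 5.22 and 3.48 at Dlk1-Meg3. Among 10735 autosomal windows of 230 kb laid end to end, 53 had as many AVC peaks as Igf2r or more and 18 had as many chamber peaks or more. For the Dlk1-Meg3 window these numbers were 2590 and 3051. The median window of this length held 6 AVC and 3 chamber peaks, so the Dlk1-Meg3 window lay above the median in both lists. All these counts take peaks as called, so split peaks count separately. With peaks of a list at most 100 bp apart joined, the Igf2r window held 36 AVC and 37 chamber peaks. The tiled windows were not recounted that way.

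**Figure D1:**
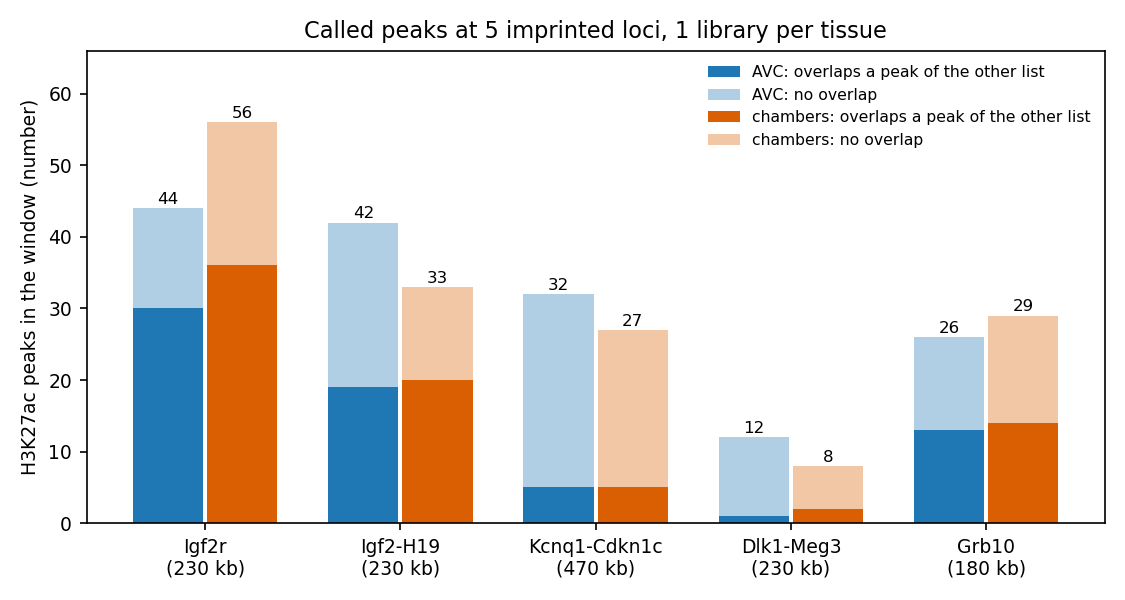
Number of called H3K27ac peaks (vertical axis) in each of the 5 windows, AVC bars left and chamber bars right, with the full colour for peaks that overlap the other list and the pale colour for those that do not. The Igf2r bars are the tallest at 44 and 56, and most Dlk1-Meg3 and Kcnq1-Cdkn1c peaks are pale.

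Overlap between the tissues exceeded that of the whole lists at Igf2r, at Igf2-H19 and, for AVC peaks, at Grb10, while the intervals at Kcnq1-Cdkn1c and Dlk1-Meg3 included it. Sharing means at least 1 bp in common with a peak of the other list, and intervals are exact Clopper-Pearson 95% intervals that cover counting error only. They treat neighbouring peaks of 1 library as independent, which split peaks are not, so they serve as description and not as a test. At Igf2r 14 of 44 AVC peaks lay outside every chamber peak, against 76.8% of the whole AVC list, and 20 of 56 chamber peaks lay outside every AVC peak, against 68.4% of the whole chamber list. The shared part was thus 68.2% of the AVC peaks (52.4 to 81.4) and 64.3% of the chamber peaks (50.4 to 76.6). Igf2-H19 shared 19 of 42 AVC peaks, or 45.2% (29.8 to 61.3), and 20 of 33 chamber peaks, or 60.6% (42.1 to 77.1). Grb10 shared 13 of 26 AVC peaks, or 50% (29.9 to 70.1), and 14 of 29 chamber peaks, or 48.3% (29.4 to 67.5). The Grb10 interval for chamber peaks included the 31.6% of the whole chamber list. The other intervals of these 3 loci lay above the share of their own list. For AVC peaks at Grb10 the lower limit of 29.9% was close to the 29.8% shared among all AVC peaks of chromosome 11. With peaks of at least 300 bp, Grb10 shared 44% of AVC peaks. Chamber peaks were shared most at Igf2r as counted here, but with 50% of the shorter peak required the share was 50% at Igf2r and 51.5% at Igf2-H19, and with peaks at most 100 bp apart joined it was 56.8% and 60%. With peaks of at least 300 bp it was 66.7% at both. The Kcnq1-Cdkn1c window shared 5 of 32 AVC peaks, or 15.6% (5.28 to 32.8), and 5 of 27 chamber peaks, or 18.5% (6.30 to 38.1). At Dlk1-Meg3, 1 of 12 AVC peaks, or 8.33% (0.21 to 38.5), and 2 of 8 chamber peaks, or 25% (3.19 to 65.1), overlapped. These 4 intervals all included the shares of the whole lists, 23.2% and 31.6%. Against chromosome 7 alone, the Kcnq1-Cdkn1c interval for chamber peaks ended just below the 38.5% shared among chamber peaks. The interval for AVC peaks included the 23.5% shared among AVC peaks of that chromosome. The whole lists were not matched to any window for peak density, width or score. Among peaks of score 5 or more, 24.6% of the AVC list and 29.2% of the chamber list lacked overlap. Whether sharing at these loci exceeds that of peaks alike in density, width and score was not tested.

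Peaks scoring at least 5, on the scale that the peak caller set within each chromosome, took their highest share at Igf2r. There 13 AVC and 28 chamber peaks did, which is 29.5% and 50% of the peaks in the window, against 9.95% of all AVC and 18.1% of all chamber peaks. Igf2-H19 had 8 AVC and 7 chamber peaks of that class, Grb10 had 3 and 7, Kcnq1-Cdkn1c 2 and 3, and Dlk1-Meg3 1 and 0. The shares at Kcnq1-Cdkn1c, 6.25% of AVC and 11.1% of chamber peaks, lay under those of the whole lists. The highest single scores were at Igf2-H19, 26.22 in the AVC and 26.59 in the chambers, against 22.49 and 25.58 at Igf2r. All of these top scores came from narrow peaks, under 300 bp wide. The highest median AVC signal was at Grb10, 37.5 against 36 at Igf2r. The lowest AVC signal called also differed, 27 on chromosome 11 of Grb10 and 25 on chromosome 17 of Igf2r. The median chamber signal was 33 at Grb10 and 40.5 at Igf2r. Over the whole lists, 24.6% of AVC and 29.2% of chamber peaks of score 5 or more had no overlap. Peaks of at least 500 bp made up 61.5% of AVC and 31.0% of chamber peaks at Grb10 and 56.8% and 33.9% at Igf2r, against 41.8% and 13.3% of the whole lists.

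**Figure D2:**
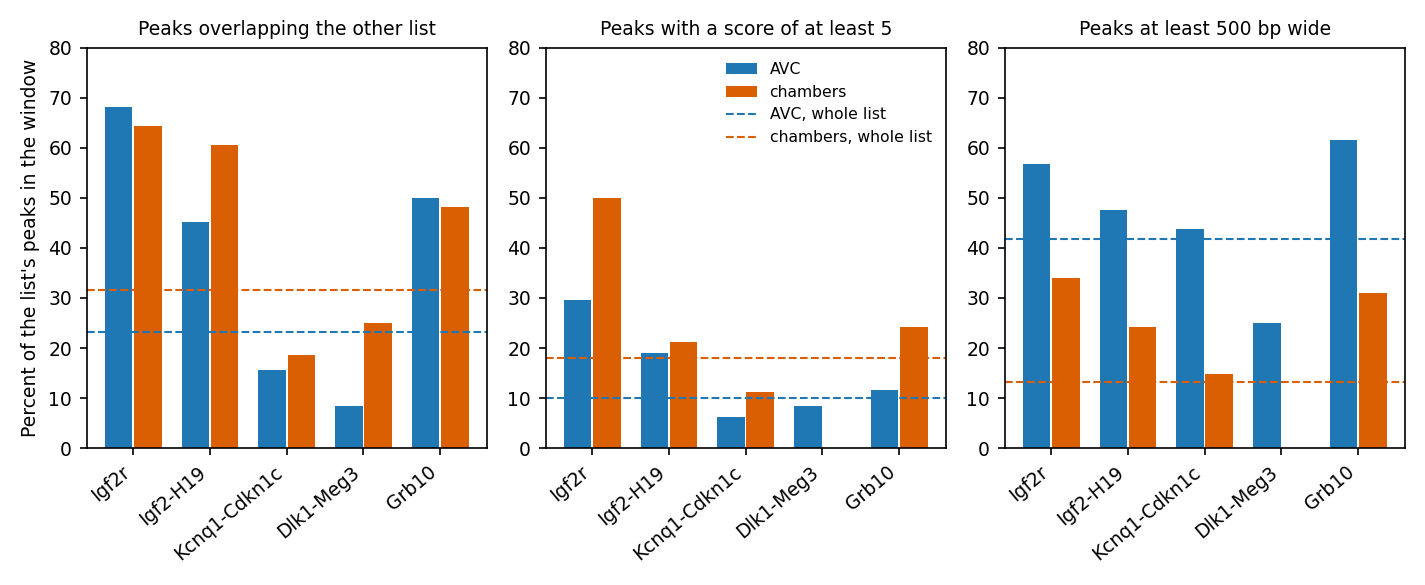
Percent of a window's peaks that overlap the other list (left), score at least 5 (middle) or are at least 500 bp wide (right), AVC bars left and chamber bars right, with dashed lines at the value of each whole list. The Igf2r bars stand above the line of their own list in all 3 panels, with 68.2% and 64.3% shared, and the Kcnq1-Cdkn1c bars below it in the left and middle ones.

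The balance between the tissues was not set apart from that of other windows of the same length. AVC peaks were 44% of the peaks at Igf2r (34.1 to 54.3), 56% at Igf2-H19 (44.1 to 67.5), 47.3% at Grb10 (33.7 to 61.2), 54.2% at Kcnq1-Cdkn1c (40.8 to 67.3) and 60% at Dlk1-Meg3 (36.1 to 80.9). Over tiled windows with at least 20 peaks, the AVC share was 53.1% at 230 kb, 52.4% at 180 kb and 55.5% at 470 kb, and all 5 intervals included the value of their own length. Of the tiled windows, 5.73% had an interval below it and 6.81% above it at 230 kb, 5.05% and 6.24% at 180 kb, and 6.75% and 9.15% at 470 kb. The Igf2r interval lay below the AVC share of all peaks, 56.6%. The surplus of chamber peaks at Igf2r depended on how peaks were split: with peaks of a list at most 100 bp apart joined, Igf2r held 36 AVC and 37 chamber peaks. With equal peak numbers, where the AVC list was cut to the length of the chamber list, the AVC share was 49.2% at Igf2-H19, 37.2% at Kcnq1-Cdkn1c and 33.3% at Dlk1-Meg3. At scores of at least 3 it was 34.6% at Kcnq1-Cdkn1c, so which tissue had more peaks at these 3 loci depended on the setting.

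Igf2 is the ligand of this group, and H19 is its neighbour. Peaks gathered at the low-coordinate end of the window, where 40 kb from 149720001 to 149760000 held 21 AVC and 16 chamber peaks, of which 12 and 12 were shared. A second cluster lay from 149844316 to 149849951, where 5 of 5 AVC peaks and 6 of 7 chamber peaks overlapped. Its first peak pair carried the second highest AVC signal of the window, 78 from 149844407 to 149844931, against 61 in the overlapping chamber peak. The signal is the deposited whole-number value of a peak, unscaled between the lists and not named in the headers.

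The strongest pair of the Igf2-H19 window was narrow. From 149858369 to 149858562 the AVC peak had a signal of 306 and a score of 26.22, and the chamber peak there, 156 bp wide, had 204 and 26.59. Their ratio was 1.50, against a median of 1.70 over all 1539 narrow pairs, under 300 bp and with scores of 10 or more in both lists. The AVC signal was the higher one in 99.6% of these narrow pairs, against 55.0% of the other pairs of the lists. At the other end of the window, broad peaks from 149727921 and from 149728847 had AVC signals of 64 and 55, against 103 and 75 in the chamber peaks that overlapped them. Both places held pairs of either direction. In the 40 kb at the low-coordinate end the AVC signal was higher in 6 of 13 pairs and the chamber signal in 6, and 1 pair was equal. The chamber signal was higher in all 4 pairs from 149723376 to 149731595. In the cluster from 149844316 the AVC signal was higher in 4 of 6 pairs and the chamber signal in 2.

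AVC peaks without a chamber partner extended further across this window. The highest of them, from 149821949 to 149822935, was 987 bp wide with a signal of 57 and a score of 6.70, and the nearest chamber peak was 11867 bp away. Beyond the narrow pair 7 AVC peaks followed one another from 149864220 to 149921388 with no chamber peak among them, at signals of 24 to 53. Only 1 of the 7 scored 5 or more, and the lowest AVC signal called on chromosome 7 was 24. Of the peaks of score 5 or more, 3 of 8 AVC peaks and 0 of 7 chamber peaks lacked a partner, against 24.6% and 29.2% of that class over the whole lists. The highest chamber peak without a partner, from 149784159 to 149784585, had a signal of 35 and lay 6415 bp from the nearest AVC peak.

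Igf2r encodes the receptor that removes the ligand and is listed next to Airn, which overlaps it, in the RefSeq gene order. Its window had the most crowded stretch of the group: 7 adjoining bins of 10 kb, from 12920001 to 12990000, held 31 AVC and 49 chamber peaks, and each bin held at least 6. In this stretch 26 AVC and 32 chamber peaks were shared, and 10 AVC and 24 chamber peaks scored 5 or more. The fullest bin, from 12970001 to 12980000, held 7 AVC and 12 chamber peaks. The peaks there lay close together, from 12965083 to 12978259 in steps of at most 3 kb. Of 85135 such rows of peaks in the genome, 87 held as many as its 25 or more. Split peaks of a list count separately in this row and in the stretch. Joining peaks of a list at most 100 bp apart absorbed 33.9% of chamber and 18.2% of AVC peaks of the window. Over the whole lists it absorbed 6.52% and 3.65%. The rank of the row was not recomputed with joined peaks.

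The broad peaks of the Igf2r stretch, at least 500 bp wide, differed widely in signal. The 20 AVC peaks ran from 25 to 117 with a median of 45.5, and the 16 chamber peaks from 42 to 167 with a median of 66. These medians do not compare the tissues, because this width kept 41.8% of all AVC but 13.3% of all chamber peaks. Among the 35 overlapping pairs of the stretch the AVC signal was higher in 18 and the chamber signal in 17. Their median ratio was 1.02. The broad AVC peak from 12985385 had 25 and the narrower chamber peak that overlapped it 26, while other broad peaks were high in both lists. From 12984330 to 12985051 the AVC peak had a signal of 108, against 167 in the chamber peak. From 12960832 to 12962048 an AVC peak of 1217 bp had a signal of 117 and spanned chamber peaks of 134 and 79. By the ratio of the unscaled signals, the lowest of the 83 overlapping pairs in the 5 windows lay from 12959837 to 12960183, where the AVC signal was 40 and that of the chamber peak around it 159, so that the AVC peak stood at the 80.7th percentile of its list and the chamber peak at the 98.4th. The ratio was 0.25. Ranks within the lists were further apart at other pairs of the window, in both directions. From 12991449 an AVC signal of 25 stood at percentile 2.49 and the chamber signal of 68 at percentile 92.9. From 12944060 an AVC signal of 59 stood at percentile 93.8 and the chamber signal of 24 at percentile 8.51. By ratio, the highest of the 83 pairs involved a broad AVC peak from 12975270 to 12976359. It had 88, against 29 and 30 in a pair of chamber peaks inside it and 54 in another at its edge.

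**Figure D3:**
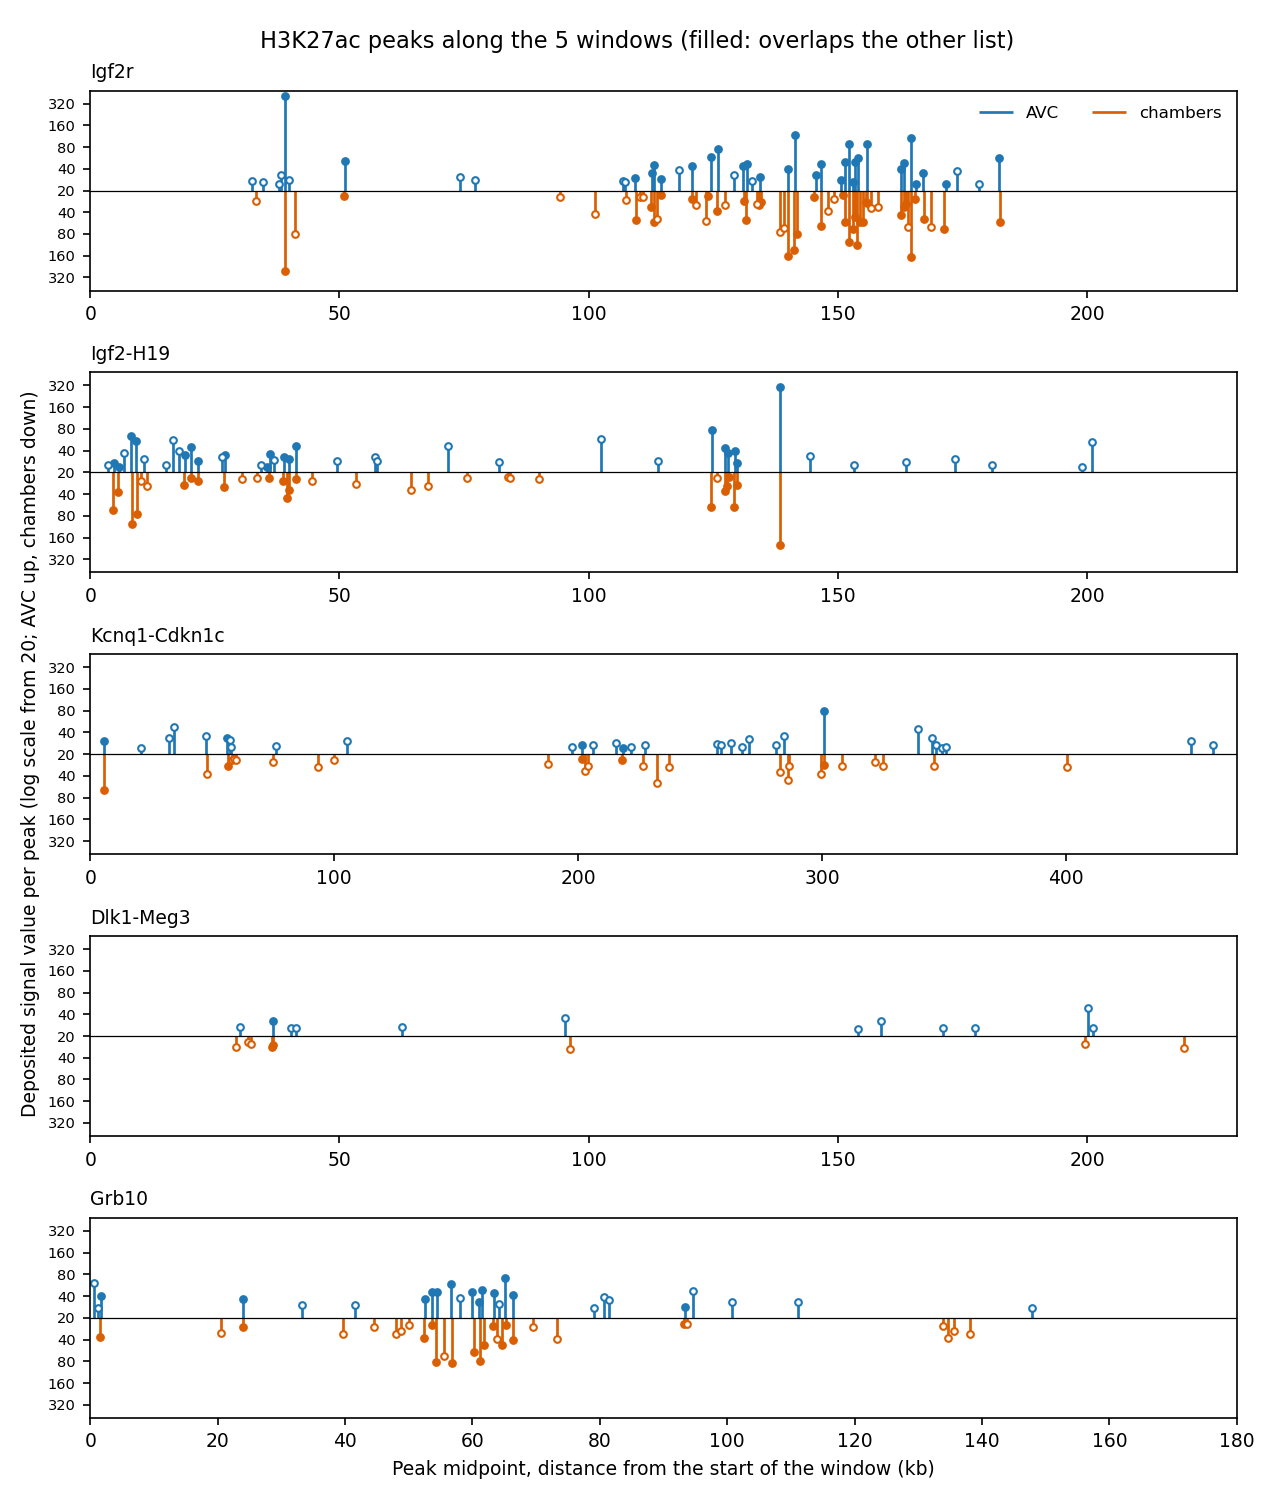
Each peak's deposited signal value (vertical axis, log scale from 20) at its distance in kb from the start of the window (horizontal axis), AVC lines upward and chamber lines downward, with filled tips where the peak overlaps the other list. The Igf2r peaks crowd between about 100 and 170 kb in both tissues, the Grb10 peaks in 20 kb from 50 kb, and the right end of the Igf2-H19 window has AVC peaks alone.

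Outside that stretch the Igf2r window was emptier, with no peak of either list in the 47.2 kb at its high-coordinate end. Its highest signal lay apart from the crowd: 408 in an AVC peak of 297 bp from 12858861 to 12859157, against 257 in a chamber peak of 146 bp. The ratio was 1.59, against the median of 1.70 over all narrow pairs of score 10 or more, to which this pair belongs. Beside this pair a chamber peak of 835 bp, from 12860740 to 12861574, had a signal of 81 and a score of 11.97 with no AVC overlap, the nearest AVC peak being 644 bp away. It was the highest of 8 chamber peaks without a partner among the 28 of score 5 or more, and 3 of these 8 had no AVC peak within 1 kb. Over the whole chamber list 29.2% of that class lacked a partner, near the share here. All 13 AVC peaks of that class overlapped a chamber peak, while 24.6% of that class did not over the whole AVC list. The highest AVC peak without overlap, from 12937676 to 12938406, reached 38.

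Grb10, the adaptor that restrains insulin and IGF signalling, had a single compact cluster. The 20 kb from 11850001 to 11870000 held 12 AVC and 15 chamber peaks, of which 10 and 11 were shared, and 2 AVC and 7 chamber peaks scored 5 or more. As a row with gaps of at most 3 kb it ran from 11847842 to 11869763 with 29 peaks, and 54 rows of the genome held as many or more. Here too split peaks count separately, and joining absorbed 11.5% of AVC and 10.3% of chamber peaks of the window. The 3 highest chamber peaks of the window lay in this row. They had signals of 85 from 11856501, 81 from 11853794 and 78 from 11860848, against 58, 46 and 49 in the highest AVC peaks that overlapped them.

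The highest AVC peak of the Grb10 window lay in the same cluster, from 11864706 to 11865538, with a signal of 72 against 48 and 25 in the chamber peaks that overlapped it. A chamber peak between the others, from 11855230 to 11855953, had 68 and no AVC overlap, with an AVC peak 364 bp away. The highest AVC peak without overlap was at the edge of the window, from 11800131 to 11801052, with a signal of 60. Further along, 4 chamber peaks from 11933611 to 11938356 had no AVC peak among them, and their signals were at most 38.

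Cdkn1c, the cell cycle inhibitor, and Kcnq1, the channel gene, share a window in which peaks were scattered and AVC signals mostly low. It still held more AVC peaks than 87.4% of the tiled windows of 470 kb and more chamber peaks than 86.9%. No row of peaks held more than 7, and the longest peak-free stretch, from 150355272 to 150437743, measured 82.5 kb. The median signal was 27.5 in AVC peaks and 29 in chamber peaks, at the 22.5th and the 49.1st percentile of their lists. One broad AVC peak stood out, 1188 bp from 150550177 to 150551364 with a signal of 79, against 28 in the chamber peak inside it. The highest chamber peak, from 150255448 to 150255981, went the other way, the AVC peak there having 30 and the chamber peak 62.

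Peaks of score 5 or more were few here, and 1 of 2 in the AVC and 2 of 3 in the chambers had no partner. The AVC peak lay from 150284032 to 150284835 with a signal of 47, and the nearest chamber peak was 12918 bp away. The chamber peaks lay from 150482067 to 150482425 with a signal of 50 and from 150535724 to 150536219 with 45, at 4434 and 1251 bp from the nearest AVC peak. The third AVC peak by signal, 44 from 150589098, had no partner either. Between 150506640 and 150531550 the AVC list had 6 peaks in a row and the chamber list none, at signals of 25 to 32. Those values sit just above the lowest signal called on chromosome 7, which was 24 in the AVC list and 23 in the chamber list.

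Dlk1 and Meg3, the ligand and the non-coding RNA of the chromosome 12 domain, had the fewest and weakest peaks. AVC signals were between 25 and 49 and chamber signals between 24 and 30, where the lowest values called on the chromosome were 25 and 24. The highest AVC peak, from 110819738 to 110820531, had a signal of 49 and a score of 5.26 and lay 44 bp from a chamber peak without overlapping it. The highest chamber peak, from 110716183 to 110716459, had 30 and lay 668 bp from the AVC peak of second rank, 35 from 110714870. The next chamber peaks, with 29 from 110839283 and 28 from 110649139, had no AVC overlap. The single shared site was an AVC peak of 32 from 110656296 to 110656893 over chamber peaks of 28 and 27. No peak was called from 110716460 to 110773814 in either list. A peak that was not called does not show that acetylation was absent.

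Across the windows, 83 overlapping pairs linked the lists. The AVC signal was the higher one in 47 pairs, the chamber signal in 34, and 2 were equal. Over all pairs of the lists the AVC signal was higher in 58%, so the count at these loci was near the background. Against the median ratio of all pairs, 38 pairs lay above and 45 below. The median AVC-to-chamber ratio was 1.03 at Igf2r over 39 pairs, 1.12 at Igf2-H19 over 21, 1.03 at Grb10 over 16, 1.17 at Kcnq1-Cdkn1c over 5 and 1.16 at Dlk1-Meg3 over 2. Over all 22319 pairs of the lists it was 1.11, with quartiles of 0.80 and 1.53. Each median lay within those quartiles, while single pairs of the 5 windows ran from 0.25 to 3.03. The quartiles describe single pairs, and medians of many pairs vary less, so lying within them says little. Broad peaks of one list often spanned several peaks of the other, so pairs are not independent.

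**Figure D4:**
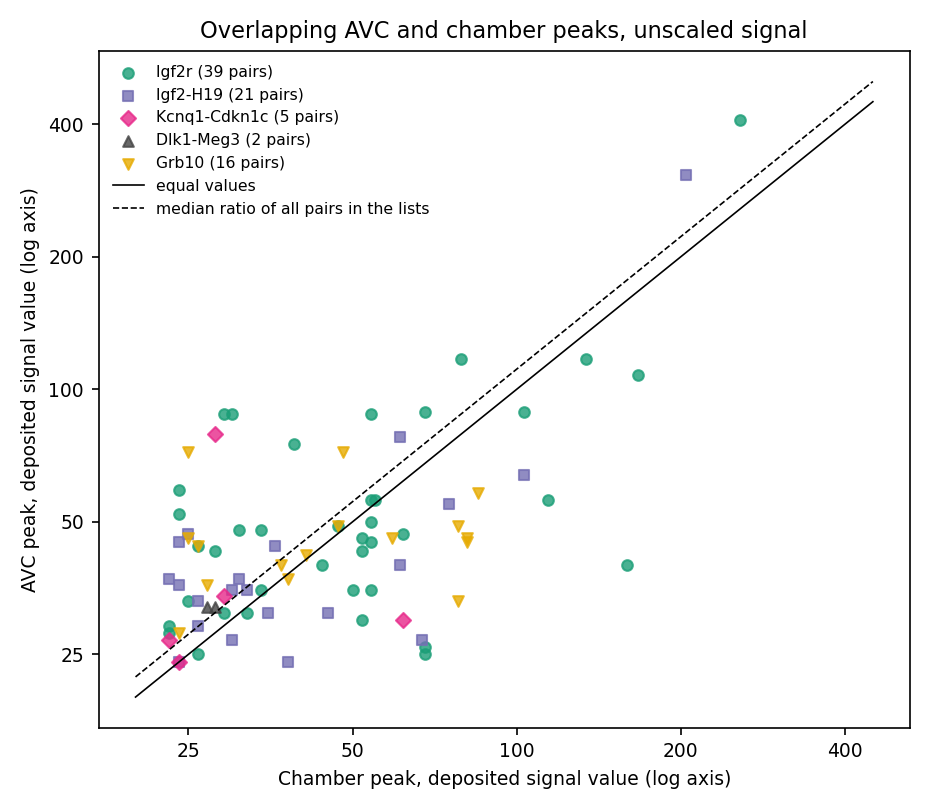
Deposited signal value of the AVC peak (vertical, log axis) against that of the chamber peak (horizontal, log axis) for the 83 overlapping pairs, by window, with lines at equal values and at the median ratio of all pairs, 1.11. Points fall on both sides of the lines at each of the 3 dense loci, and the narrow pairs of Igf2r (408 and 257) and Igf2-H19 (306 and 204) stand at the upper right.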

How the data were processed

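Per the labels' protocols, cells were fixed after sorting, immunoprecipitated for H3K27ac and sequenced by SOLiD. Per the submitters' processing notes, Bowtie, SAMtools and mm9 were used, without versions. Per the file headers, OccuPeak 1.3 called peaks chromosome by chromosome at a Log(ER) threshold of 2, with a modelled fragment length of 60.5 (AVC) or 68 (chambers). The deposited score is the caller's value, all above 2. The deposited signal is a whole number without scaling; sequencing depth is unknown, and no control library was used here.

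Members and lists were chosen with earlier results of these data known. Starts were converted to 1-based mm9 positions. Overlap needed 1 bp, percentiles are ranks of signal within a list, and the interval counting was tested on simulated data. The named peaks are, per window and list, the 3 of highest signal and the highest without overlap, with the fullest 10 kb bin at Igf2r; other peaks were named after their values were seen. Stretches are adjoining 10 kb bins with at least 6 peaks, and rows are peaks of either list with gaps of at most 3 kb. Tiled windows covered the 19 autosomes. The rows of peaks in the genome left out only the mitochondrial chromosome, and whole-list shares and pairs used every chromosome listed. No test between tissues was made. Software was scipy 1.17.1, pandas 2.3.3 and numpy 2.4.6 under Python 3.11.15, with figures from matplotlib 3.10.9.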

Additional observations from a re-analysis of the deposited data

How the results depend on the processing

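Of 118 values recomputed under other settings (AVC shares, shared percentages and signal ratios), 103 stayed inside the interval of the value reported and 15 did not. For signal ratios that interval came from the ranked ratios of the pairs and is not printed above. The count is no measure of robustness. Counting any base inside the window moved 0 of 5 values, and some intervals were wide, such as 3.19 to 65.1 for shared chamber peaks at Dlk1-Meg3. When any peak of the other list within 1 kb made a peak shared, by construction a looser rule, Igf2r shared 81.8% of AVC and 85.7% of chamber peaks, Igf2-H19 61.9% of AVC peaks, and Kcnq1-Cdkn1c 37.5% and 48.1%. With 50% of the shorter peak required, Igf2r shared 50% of chamber peaks. At scores of at least 3, Kcnq1-Cdkn1c had 9 AVC and 17 chamber peaks, an AVC share of 34.6%, and 5.88% of those chamber peaks were shared. Dlk1-Meg3 kept 2 AVC peaks and no chamber peak, a share of 100%, with 0% of AVC peaks shared. With equal peak numbers, which removes the weakest AVC peaks, the AVC share was 37.2% at Kcnq1-Cdkn1c and 33.3% at Dlk1-Meg3, so which tissue had more peaks there depended on the setting. With peaks of at least 300 bp, 0% of AVC and 0% of chamber peaks were shared at Dlk1-Meg3. Dividing by the median over all pairs gave a ratio of 1.05 there. At Igf2r the AVC share ran from 37.8% with equal peak numbers to 49.3% with peaks at most 100 bp apart joined. That joining, and leaving out narrow peaks of score 10 or more, were chosen after seeing the data; the joining absorbed 33.9% of the chamber and 18.2% of the AVC peaks at Igf2r, against 6.52% and 3.65% of the whole lists. No pair with a single partner on both sides remained at Dlk1-Meg3. No paired analysis was possible because there is a single library per tissue. The unknown depth limits what a missing peak shows.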

Other observations

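The surroundings of the windows differed. The 300 kb of chromosome 7 between the Igf2-H19 and the Kcnq1-Cdkn1c windows, part of the same imprinted cluster, held 27 AVC and 15 chamber peaks, an AVC share of 64.3% (48.0 to 78.4), of which 6 and 7 were shared. The 50 kb before the Igf2-H19 window held 21 AVC and 21 chamber peaks, a density above that of the window itself, so the crowding at its low-coordinate end continued beyond the border. The 50 kb on either side of the Igf2r window held 2 AVC peaks and 1 chamber peak in all, and the 50 kb after the Grb10 and after the Igf2-H19 windows held none.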
